A study of Arabidopsis thaliana with 25 samples.

Results

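Roots and shoots of air-grown Arabidopsis seedlings were compared with 12 Affymetrix ATH1 arrays, 6 from roots and 6 from shoots, which are all the normoxia arrays among the 25 of the series. The seedlings were Columbia-0, 10 days old, grown upright on plates with sucrose in long days, and were of 3 genotypes with 2 arrays per genotype and organ. The genotypes were the wild type (WT), mpk6, whose MAP kinase gene MPK6 is knocked out by an inserted T-DNA, and MPK6ox, which overexpresses MPK6 from a T-DNA with the constitutive 35S promoter. By the protocol, every seedling of the 12 arrays spent 2 h in an open box as the mock of a low-oxygen treatment. The seedlings were cut into root and shoot afterwards, so the tissue is whole organs and not single cell types. The transcript of MPK6 was not analysed here and gives no check of the genotypes. The titles call the samples biological replicates without naming separate cultures, so p-values measure the spread between these samples. The other 13 arrays, from seedlings in argon, were used only to set the organ difference in air beside that in low oxygen.

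A shoot lives by photosynthesis: its chloroplasts carry the photosystems and the enzymes that fix carbon, built from proteins encoded partly in the nucleus and partly in the plastid's own small genome. A root has no light to harvest. It anchors the plant, takes up water and minerals through root hairs and across the barriers of the endodermis, grows from a meristem at its tip, and makes a large set of defensive and exuded compounds, while its plastids stay colourless.

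The organ difference is given as root minus shoot on the log2 scale, estimated with genotype as a covariate, and calls were made at an adjusted p below 0.05 by limma. Of 22746 probe sets 13328 were called (58.6%), 7055 higher in root (31%) and 6273 higher in shoot (27.6%). With each array centred on its median the majority turned, with 6321 higher in root and 7703 in shoot. The called difference was at least 2-fold for 2695 probe sets higher in root (11.8%) and for 2498 higher in shoot (11%). The extremes were lopsided. At least 8-fold differences were found for 465 probe sets higher in root (2.04%) and 612 higher in shoot (2.69%), and at least 32-fold differences for 34 and 139. Every root array lay above every shoot array for 5223 probe sets (23%), and the reverse held for 4459 (19.6%). With 58.6% of all probe sets called, a call by itself says little about a gene, so gene groups are described below by the sizes of their differences too. Groups are counted by gene, each read from its brightest probe set, while the shares beside them are over all probe sets. Of the 13355 measured genes 3820 were called higher in root and 3457 higher in shoot, both smaller shares than over all probe sets. In whole organs, fewer cells of a type and less RNA per cell cannot be told apart.

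**Figure D1:**
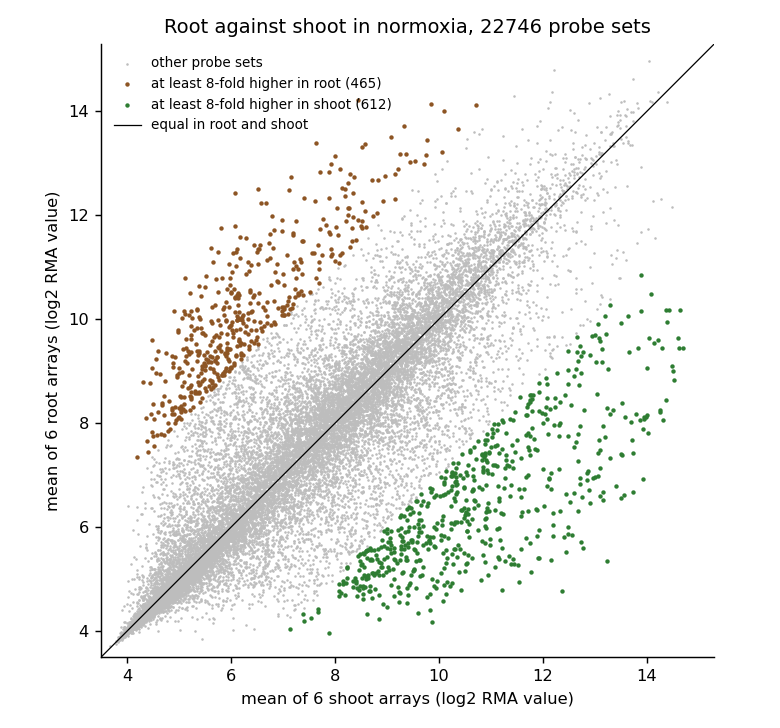
Mean log2 RMA value of each of the 22746 probe sets over the 6 shoot arrays (horizontal) and the 6 root arrays (vertical), with a line where both are equal. The 465 probe sets at least 8-fold higher in root (brown) and the 612 at least 8-fold higher in shoot (green) lie far from the line, and the shoot ones reach further from it.

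The 12 arrays separated by organ. Arrays of the same organ correlated at 0.982 to 0.995 between genotypes, and root with shoot arrays at 0.802 to 0.859. A pair of arrays from mpk6 stood apart from the rest of their organ, each towards the other organ. On mpk6 shoot replicate 2 the 465 root probe sets averaged 6.83, against 6.02 to 6.32 on the other 5 shoot arrays, and it was the highest shoot array for 329 of them (70.8%). On mpk6 root replicate 1 the 612 shoot probe sets averaged 6.85, against 6.32 to 6.56 on the other 5 root arrays, and it was the highest root array for 303 of them (49.5%). Whether tissue of the other organ took part in these values was not tested. Without both arrays 12601 probe sets were called, 6696 higher in root and 5905 higher in shoot, and 1129 were at least 8-fold.

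**Figure D2:**
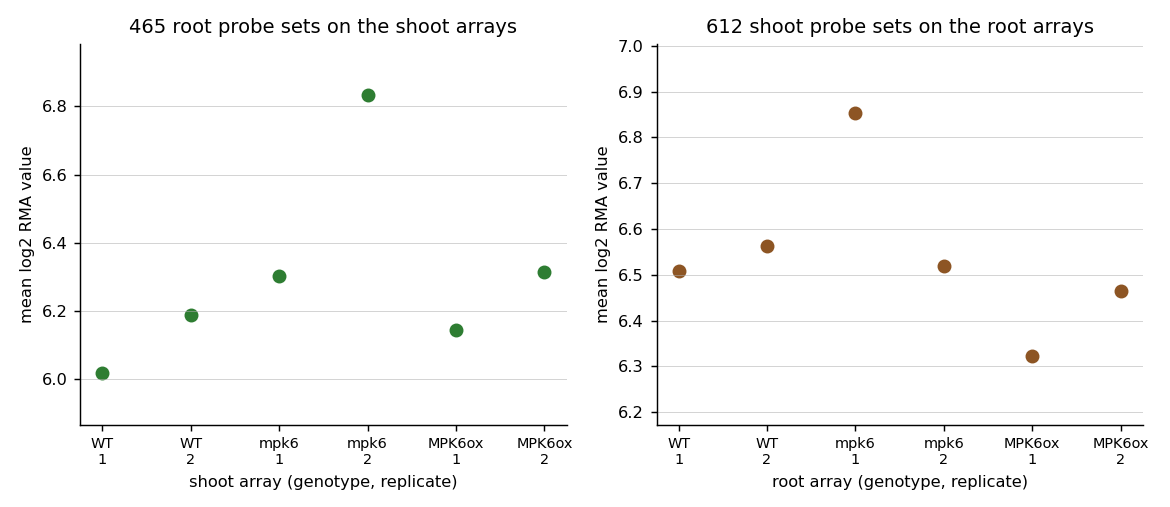
Left, mean log2 RMA value of the 465 probe sets at least 8-fold higher in root on each of the 6 shoot arrays; right, mean of the 612 probe sets at least 8-fold higher in shoot on each of the 6 root arrays. mpk6 shoot replicate 2 (6.83) and mpk6 root replicate 1 (6.85) lie above the other arrays of their organ; the vertical axes do not start at 0.

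The 15 genes with the largest excess in shoot, among those with 1 gene per probe set and arrays that did not overlap, were 65.9-fold to 133-fold higher in shoot than in root. Of these, 6 carry no name beyond a locus code in the annotation used, and the other 9 are PRK, ECS1, SBPASE, CaS, PSBY, HPR, LHCB4.2, psaJ and ALDH11A3. The largest difference belonged to AT1G09310, at 4.74 to 8.46 on the root arrays (median 6.83) and at 13.5 to 13.9 on the shoot arrays (median 13.7), a difference of -7.06 ± 0.43 (SE, adjusted p = 3.12e-08). Its root values spread over a wide range while its shoot values were tight, and the highest root value came from mpk6 root replicate 1. That array was the highest root array for all 15 of these genes. On the root side, mpk6 shoot replicate 2 was likewise the highest shoot array for all 15 of the most root-enriched genes. Without both arrays 29 of these 30 differences were larger. Removing the highest array of a low group lowers the mean of that group, so this outcome was nearly fixed in advance.

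**Figure D3:**
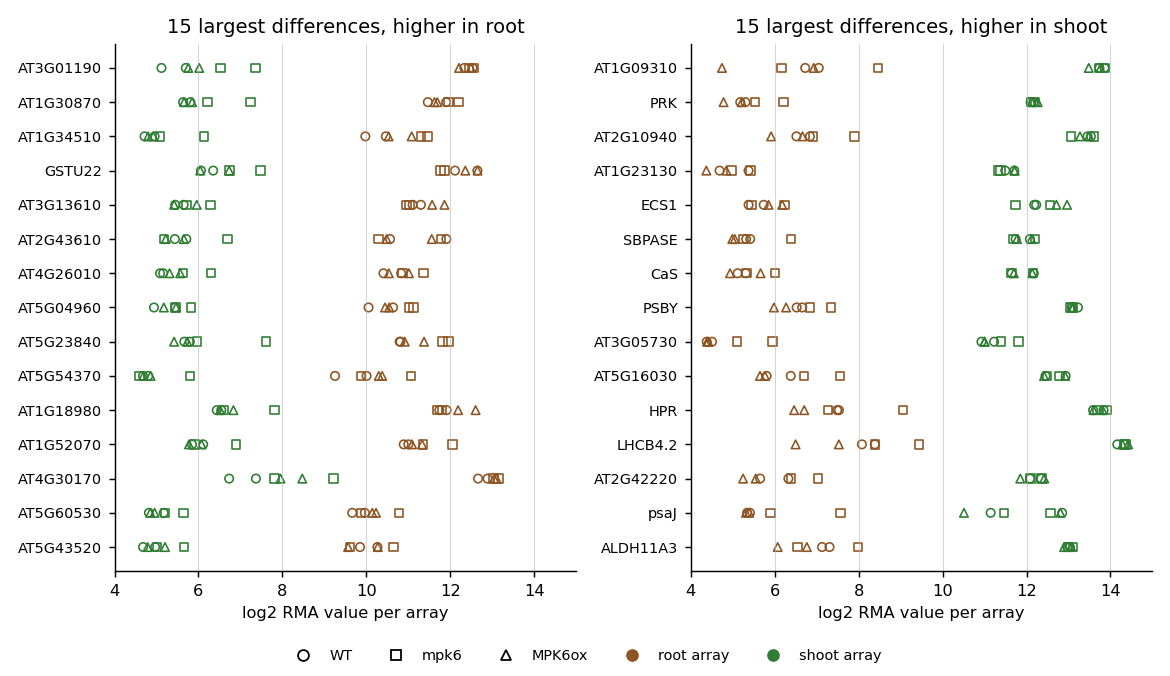
Log2 RMA value of the 15 genes with the largest root excess (left) and the 15 with the largest shoot excess (right) on each of the 12 arrays, brown for root and green for shoot, with a symbol per genotype. The colours do not overlap for any of the 30 genes; the mpk6 squares mark the array nearest to the other organ in each low group.

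Photosystem and light-harvesting genes were higher in shoot throughout. All 6 measured genes of a list of 35 were called higher in shoot, against 27.6% of all probe sets. Their median difference was -5.35 against -0.02 over all measured genes, and each was at least 8-fold higher in shoot. The mean of the 6 genes was 13.6 to 13.8 on the shoot arrays and 7.68 to 9.30 on the root arrays, with mpk6 root replicate 1 the highest root array. PSBY, a small photosystem II protein, read 5.98 to 7.34 on the root arrays (median 6.59) and 13.04 to 13.22 on the shoot arrays (median 13.09), a 90.8-fold excess in shoot (difference -6.50 ± 0.15, SE, adjusted p = 1.37e-11). PSAE-1, a photosystem I subunit, differed by -6.00 ± 0.26, PSAN, which helps dock plastocyanin on photosystem I, by -5.62 ± 0.28, and PSBW of photosystem II by -5.09 ± 0.25. ATPC1, the gamma subunit of the chloroplast ATP synthase, had the smallest difference of the list, -3.58 ± 0.09, with root arrays still at 9.70 to 10.2. Thus the list held together in direction but not in size.

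The LHCB4 genes, which encode a minor antenna protein of photosystem II, differed among themselves. LHCB4.2 read 6.50 to 9.43 on the root arrays (median 8.23) and 14.2 to 14.4 on the shoot arrays (median 14.3), a 76.7-fold excess in shoot (adjusted p = 4.79e-09). LHCB4.1 differed by -4.95 ± 0.13. LHCB4.3 read 6.06 to 6.97 in root and 6.61 to 7.41 in shoot, so its arrays overlapped, although the difference of -0.53 ± 0.10 was called (adjusted p = 0.000661). PSB27, a photosystem II assembly factor, differed by -6.04 ± 0.19, and CaS, the thylakoid calcium-sensing protein, by -6.51 ± 0.18. Of a further 6 thylakoid proteins 4 were higher in shoot, 1 higher in root and 1 not called. Of all probe sets 27.6% were called higher in shoot and 31% higher in root. TROL, which tethers the ferredoxin reductase to the membrane, differed by -5.36 ± 0.15, AT1G52220 by -5.31 ± 0.16, AT4G01150 by -4.54 ± 0.15 and the thylakoid ascorbate peroxidase TAPX by -4.28 ± 0.16, and AT4G38100 was the one not called, at 0.22 (adjusted p = 0.0762). TAAC, an ATP carrier of the thylakoid and envelope, went the other way: its root arrays lay at 8.85 to 9.33 and its shoot arrays at 7.54 to 8.28, a difference of 1.25 ± 0.12 (adjusted p = 2.29e-06).

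Carbon fixation showed an even wider gap. All 5 measured genes of a list of 30 were higher in shoot, against 27.6% of all probe sets. Their median was -6.32, and each was at least 8-fold. PRK, phosphoribulokinase, which makes the sugar phosphate that Rubisco uses, read 4.78 to 6.20 on the root arrays (median 5.26) and 12.1 to 12.3 on the shoot arrays (median 12.1), a 111-fold excess (difference -6.79 ± 0.16, adjusted p = 1.48e-11). SBPASE, sedoheptulose-bisphosphatase of the same cycle, read 4.99 to 6.38 in root (median 5.29) and 11.7 to 12.2 in shoot (median 11.9), a 92.5-fold excess (adjusted p = 8.91e-11). The root values of both lie close to the bottom of the range of the arrays, which ran from 3.60 to 15.1. RCA, Rubisco activase, differed by -5.85 ± 0.22. The photorespiratory genes HPR, hydroxypyruvate reductase of the peroxisome, and LrgB, the plastid glycolate and glycerate transporter, differed by -6.32 ± 0.29 and -4.83 ± 0.15. Of carbon enzymes outside that list, the cytosolic ALDH11A3, which oxidises glyceraldehyde phosphate, differed by -6.04 ± 0.23 and PPDK, pyruvate phosphate dikinase, by -4.12 ± 0.24. The redox regulators TRXF2, a thioredoxin, and NTRC, a plastid thioredoxin reductase, differed by -3.10 ± 0.21 and -2.48 ± 0.09.

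The plastid genome moved nearly as a block. Of 69 measured plastid-encoded genes 67 were called higher in shoot and 0 higher in root, against 27.6% and 31% of all probe sets, and all 67 had shoot arrays above every root array. Their median difference was -2.87, and 30 were at least 8-fold higher in shoot. By role, the medians were -3.62 for the 6 ATP synthase genes, -3.61 for the 15 photosystem II genes, -3.18 for both the 5 photosystem I genes and the 10 genes of the NDH complex, which carries electrons around photosystem I, and -2.45 for the 6 cytochrome b6f genes. The 15 ribosomal protein genes had a median of -2.63 and the 4 genes of the plastid RNA polymerase -1.60. Transcripts of the photosynthetic apparatus therefore had wider organ differences than those of the polymerase, although the ranges of these groups overlapped and the difference between them was not tested. Array labelling starts from poly(A) tails, which most plastid transcripts lack in stable form, and how this bears on the values was not tested.

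Within the plastid groups the spread was wide. psaJ of photosystem I read 5.32 to 7.57 on the root arrays (median 5.40) and 10.51 to 12.85 on the shoot arrays (median 12.02), a difference of -6.07 ± 0.46 (adjusted p = 2.53e-07), and mpk6 root replicate 1 was its highest root array by a wide margin. psbC, which encodes a core antenna protein of photosystem II, differed by -4.91 ± 0.11, and rbcL, the large subunit of Rubisco, by -2.82 ± 0.11. clpP, a plastid protease subunit, and accD, a subunit of the enzyme that starts fatty acid synthesis, are needed in colourless plastids too, and differed by -1.61 ± 0.08 and -1.48 ± 0.13. The 2 genes that were not called were rpoB, a polymerase subunit, at -0.12 (95% interval -0.24 to 0.00), and ndhF at -0.08.

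Some nuclear genes that serve the plastid machinery were examined too. NdhS, NdhL and NdhN, nuclear subunits of the NDH complex, differed by -3.91 ± 0.14, -3.62 ± 0.14 and -2.79 ± 0.12, and PIFI, which acts with that complex, by -5.15 ± 0.19. RNA editing factors of the CRR and OTP types, which alter single bases of organelle transcripts, had smaller differences: CRR21 differed by -2.18 ± 0.08, OTP84 by -0.87 ± 0.09, CRR22 by -0.67 ± 0.08 and CRR28 by -0.56 ± 0.09. Of the 8 measured genes with an OTP symbol, 4 were higher in shoot, 0 higher in root and 4 not called, while 58.6% of all probe sets were called. These editing factors and the genes of the next paragraphs without a list were singled out after their values were seen.

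The listed chlorophyll synthesis genes formed a graded series. All 5 measured genes of a list of 18 were higher in shoot, against 27.6% of all probe sets. Their median was -2.46, and 2 were at least 8-fold. GSA1, which acts at an early step shared with haem, differed by -0.77 ± 0.08, HEMB1 by -1.73 ± 0.10 and HEME2 by -2.46 ± 0.08. CHLM, at the chlorophyll-specific branch, differed by -3.46 ± 0.19. PORB, the light-dependent protochlorophyllide reductase, read 6.86 to 7.99 on the root arrays (median 7.24) and 12.1 to 13.3 on the shoot arrays (median 12.6), a difference of -5.41 ± 0.27 (adjusted p = 6.80e-09). Among genes outside the list, CHLI2, a magnesium chelatase subunit, differed by -4.17 ± 0.13, and the light-harvesting-like proteins LIL3:1 and LIL3:2, which hold late chlorophyll enzymes, by -5.41 ± 0.15 and -3.36 ± 0.11. In the 5 listed genes the steps nearer to chlorophyll had the larger difference, which is a description of 5 values and was not tested. With CHLI2 added the order did not hold, since its difference was larger than that of CHLM.

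Leaf and stomatal regulators were higher in shoot by smaller amounts. The 5 measured genes of a list of 26 were all called higher in shoot, against 27.6% of all probe sets. Their median was -0.78, and 0 were at least 8-fold. The leaf polarity factors YAB5 and YAB3 differed by -2.32 ± 0.14 and -1.92 ± 0.11, with arrays that did not overlap. The stomatal lineage factors SPCH, MUTE and FMA, which drive the successive steps from a lineage cell to guard cells, differed by -0.65 ± 0.08, -0.32 ± 0.09 and -0.78 ± 0.10. MUTE read 4.58 to 5.04 in root and 4.87 to 5.42 in shoot, so its arrays overlapped, and without both apart mpk6 arrays it was no longer called, which left 4 of the 5. STOMAGEN, the leaf-derived peptide that promotes stomata, read 4.39 to 4.82 on the root arrays (median 4.61) and 8.31 to 8.89 on the shoot arrays (median 8.49), a difference of -3.91 ± 0.11 (adjusted p = 4.30e-11). The guard cell cation exchanger CHX20 differed by -2.75 ± 0.18.

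The root side was led by genes that the annotation used mostly lists by locus code, which does not mean that they are unstudied. The 15 genes with the largest root excess were 31.6-fold to 81.5-fold higher in root, and 14 of them carry a locus code alone as their name in the annotation. AT3G01190 read 12.2 to 12.6 on the root arrays (median 12.5) and 5.12 to 7.36 on the shoot arrays (median 5.89), a difference of 6.35 ± 0.23 (adjusted p = 3.92e-10). Its shoot values were uneven, with mpk6 shoot replicate 2 the highest. AT1G30870 and AT1G34510, a peroxidase gene, followed with 5.74 ± 0.17 and 5.70 ± 0.18. The search of the annotation text matched 0 class III peroxidases, so other peroxidase genes can stand unmarked among these locus codes. GSTU22, a glutathione transferase of the tau class, read 11.8 to 12.6 in root (median 12.2) and 6.04 to 7.47 in shoot (median 6.54), a 50.8-fold excess (adjusted p = 2.43e-09). AT3G13610, which the reference annotation also calls F6'H1 and which makes the precursor of the exuded coumarin scopoletin, read 11.0 to 11.9 in root (median 11.2) and 5.42 to 6.28 in shoot (median 5.68), a 47.1-fold excess (adjusted p = 1.20e-10). The others were AT2G43610, AT4G26010, AT5G04960, AT5G23840, AT5G54370, AT1G18980, AT1G52070, AT4G30170, AT5G60530 and AT5G43520, with differences from 5.45 down to 4.98.

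Genes of root hair growth were higher in root in every case measured. All 4 measured genes of a list of 24 were called higher in root, against 31% of all probe sets. Their median was 4.12, and 3 were at least 8-fold. EXPA7 and EXPA18, expansins that loosen the wall of the growing hair, differed by 4.01 ± 0.08 and 4.28 ± 0.15. EXPA7 read 9.01 to 9.70 on the root arrays (median 9.34) and 5.25 to 5.56 on the shoot arrays (median 5.36; adjusted p = 8.14e-12), with little spread in either organ. GH9C1, a cellulase of the hair wall, differed by 4.23 ± 0.13 and XTH26, a xyloglucan endotransglucosylase, by 1.59 ± 0.25. The mean of the 4 genes was 8.65 to 9.33 on the root arrays and 5.35 to 5.65 on the shoot arrays. The highest shoot array was mpk6 shoot replicate 1 at 5.65, followed by mpk6 shoot replicate 2 at 5.62.

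Barrier and meristem genes had intermediate differences. FACT, which makes waxes of the suberin layer, read 8.17 to 9.68 in root (median 9.16) and 4.99 to 6.55 in shoot (median 6.07), a difference of 3.13 ± 0.26 (adjusted p = 5.89e-07). GSO1, a receptor kinase that keeps the Casparian strip continuous, differed by 2.24 ± 0.06, and these were the 2 measured genes of a list of 22. Of a root meristem and stele list of 27 genes 5 were measured, 4 of them higher in root and 0 higher in shoot. Their median was 2.06, and 31% and 27.6% of all probe sets were called in these directions. AGL21, a MADS-box factor of lateral root growth, differed by 3.33 ± 0.13, AT5G48940 by 2.84, AGL42, a MADS-box factor known from the quiescent centre, by 2.06 ± 0.16, and LHW, a factor of vascular cell divisions, by 1.11 ± 0.07. JKD, a zinc finger factor of the ground tissue, read 7.29 to 7.64 in root and 7.13 to 7.39 in shoot, and its difference of 0.19 was not called (95% interval 0.02 to 0.35, adjusted p = 0.058). UPB1, a factor that sets where root cells leave the meristem, differed by 3.22 ± 0.08.

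Glutathione transferases, which conjugate reactive and foreign compounds, split between the organs. Of 13 measured genes 8 were higher in root and 4 in shoot, against 31% and 27.6% of all probe sets, with a median of 1.40. The tau class held the extremes of both sides. GSTU25 and GSTU26, which neighbour each other in the genome, were higher in root by 4.58 ± 0.19 and 4.36 ± 0.14, next to GSTU22 at 5.67 ± 0.25, and GSTU28, GSTU23 and GSTU27 by 2.83 ± 0.23, 2.74 ± 0.08 and 2.21 ± 0.12. GSTU18 read 5.15 to 5.68 in root (median 5.54) and 8.64 to 8.99 in shoot (median 8.73), a difference of -3.33 ± 0.11 (adjusted p = 2.61e-10). GSTU16 and GSTU20 were higher in shoot as well, at -2.68 ± 0.15 and -2.33 ± 0.17. Members of closely related classes can share probe sequence, and cross-hybridisation was not assessed.

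Glycosyltransferases, cytochromes P450 and beta-glucosidases build and break the sugar conjugates and oxidised forms of small molecules. Of 47 genes with a UGT symbol 20 were higher in root and 16 in shoot, and the median was 0.04, with 58.6% of all probe sets called. UGT71C1 differed by 4.30 ± 0.12, its relatives UGT71C2, UGT71C3 and UGT71C5 by 2.13 ± 0.11, 2.12 ± 0.11 and 0.47 ± 0.07, and UGT71C4 by -0.20 ± 0.06, so 1 small gene group spanned the range from a strong root excess to a slight shoot excess. UGT72E2, which glucosylates monolignols, read 11.5 to 12.8 in root (median 11.7) and 7.20 to 9.47 in shoot (median 8.14), a difference of 3.76 ± 0.19 (adjusted p = 6.15e-09), with UGT72E3 at 3.06 ± 0.14 and UGT72E1 at 0.76 ± 0.16. UGT76B1 differed by 4.16 ± 0.27. On the shoot side UGT88A1 differed by -3.90 ± 0.12 and UGT78D1, which adds rhamnose to flavonols, by -2.87 ± 0.12. Among 24 cytochromes P450, 6 were higher in root and 7 in shoot, against 31% and 27.6% of all probe sets, and CYP71B37 at 3.45 ± 0.14 and CYP71B5 at -3.69 ± 0.16 stood at the ends. Of 20 beta-glucosidases 6 were higher in root and 5 in shoot, a share near that of all probe sets, from BGLU15 at 3.14 ± 0.09 to BGLU33 at -3.38 ± 0.11. Without both apart mpk6 arrays 3 beta-glucosidases were higher in shoot. PYK10, the beta-glucosidase of endoplasmic reticulum bodies, was higher in root by 0.88 ± 0.08 and high in both organs, at 14.5 to 14.8 and 13.6 to 13.9.

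TPS-CIN, the terpene synthase that makes cineole, read 8.99 to 9.99 in root (median 9.45) and 4.51 to 5.81 in shoot (median 5.03), a 20.5-fold excess (difference 4.36 ± 0.23, adjusted p = 9.21e-09). TRI, a tropinone reductase-type enzyme, differed by 4.78 ± 0.15. Of 3 measured lignin and flavonoid genes of a list of 23, the lignin gene HCT and ALDH2C4, which forms ferulic and sinapic acid, were higher in root by 0.72 ± 0.12 and 1.54 ± 0.13, and DFR of the anthocyanin branch was not called at -0.01 (95% interval -0.18 to 0.15). Of 3 measured glucosinolate genes of a list of 23, BCAT4, which starts the chain elongation of methionine, was higher in shoot (-1.02 ± 0.20), and UGT74B1 of the core pathway was higher in root (1.11 ± 0.16). The glucosinolate transporters GTR1 and GTR2 were higher in root by 0.60 ± 0.14 and 1.89 ± 0.16.

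Of 19 expansins 9 were higher in root and 4 in shoot, against 31% and 27.6% of all probe sets, with a median of 0.01. With each array centred on its median these counts were 8 and 6. EXPA4, EXPA9 and EXPA15 differed by 1.46 ± 0.23, 1.42 ± 0.16 and 1.41 ± 0.12, and EXPA8 by -3.22 ± 0.11. Of 10 xyloglucan endotransglucosylases, which cut and rejoin wall glucans, 5 were higher in root and 3 in shoot, against the same shares. XTH18, XTH19, XTH20 and XTH21 were root genes, at 1.79 ± 0.25, 2.84 ± 0.23, 1.58 ± 0.12 and 2.22 ± 0.20, whereas XTH32 and XTH16 were shoot genes, at -3.06 ± 0.18 and -1.63 ± 0.20. Of 22 TBL genes, a family of wall polysaccharide acetyltransferases, 13 were higher in root and 5 in shoot. Their median was 0.70, and 31% and 27.6% of all probe sets were called in these directions. TBL41, TBL39 and TBL34 differed by 2.89 ± 0.19, 2.51 ± 0.11 and 2.12 ± 0.15, and TBL45 and TBL25 by -3.94 ± 0.09 and -2.39 ± 0.13. SBT4.12, a secreted subtilase, read 11.7 to 12.2 in root (median 11.9) and 6.25 to 8.28 in shoot (median 6.89), a 30.7-fold excess (adjusted p = 1.62e-09), while SBT1.3 of the same family differed by -2.80 ± 0.07.

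**Figure D4:**
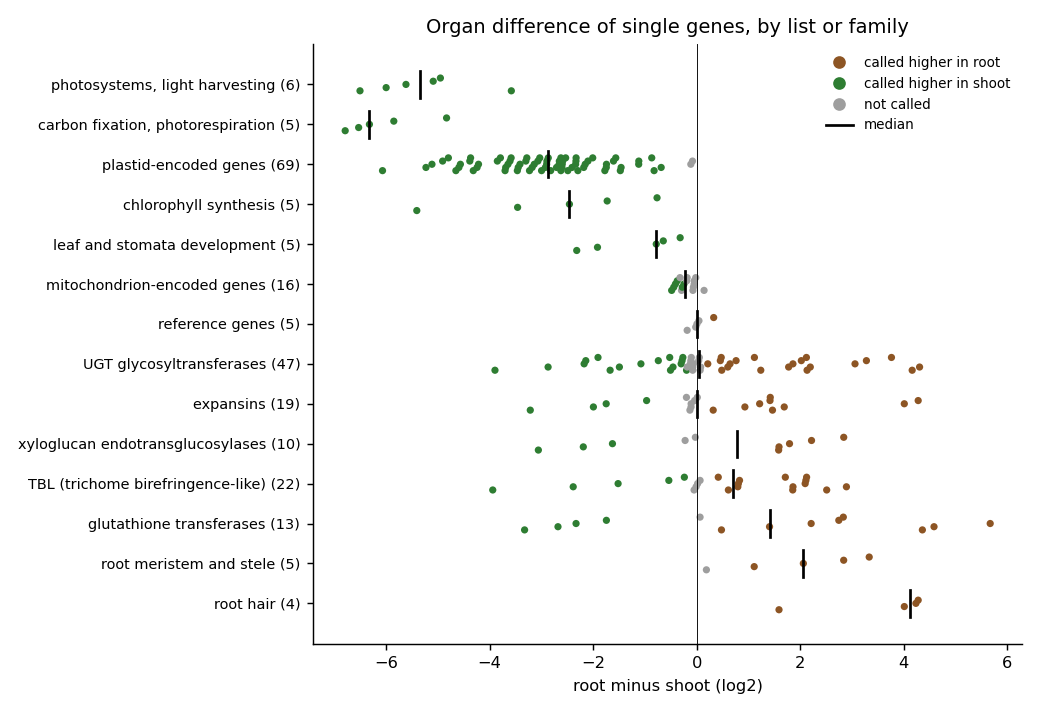
Root minus shoot difference (log2, horizontal) of each measured gene of 14 lists or families, with the number of genes in brackets, coloured by call, and a black bar at the median. Photosynthesis lists and plastid-encoded genes lie left of 0 (medians -5.35, -6.32 and -2.87), root hair genes lie right of it (median 4.12), and the enzyme and wall families reach to both sides.

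The U-box ubiquitin ligases PUB22, PUB23 and PUB24, which together restrain immune responses, were higher in root by 3.28 ± 0.12, 2.51 ± 0.12 and 2.25 ± 0.15, the 3 largest root differences among 9 measured PUB genes. PUB22 read 9.15 to 9.85 in root (median 9.62) and 6.02 to 6.55 in shoot (median 6.19; adjusted p = 4.01e-10). Of 10 measured RALF-like peptide genes, RALFL27 and RALFL32 were higher in root by 3.55 ± 0.12 and 2.46 ± 0.18, and RALFL34 was higher in shoot (-2.42 ± 0.19). Among the plant defensins PDF1.4, PDF1.2b and PDF1.2 were higher in shoot (-3.48 ± 0.26, -1.61 ± 0.22 and -1.34 ± 0.14) and PDF2.5 higher in root (2.04 ± 0.14). OSM34, osmotin, read 11.9 to 13.8 in root and 8.55 to 12.03 in shoot, so its arrays overlapped despite a called difference of 2.83 ± 0.30 (adjusted p = 4.70e-06).

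IAA29, an auxin response repressor, read 6.03 to 6.41 on the root arrays (median 6.29) and 11.1 to 11.3 on the shoot arrays (median 11.2). This was a 30.2-fold excess in shoot (difference -4.91 ± 0.06). Its adjusted p by limma, 1.6e-12, was the smallest value among the 22746 probe sets, which it did not hold alone. The 6 other measured Aux/IAA genes lay between -1.20 and 0.48. The auxin-conjugating enzymes GH3.3 and GH3.17 went opposite ways, at -2.50 ± 0.13 and 2.22 ± 0.15. Of 14 SWEET sugar carriers 5 were higher in root, led by SWEET3 at 1.61 ± 0.16 and SWEET16 of the vacuole membrane at 1.03 ± 0.16, and 4 higher in shoot, led by SWEET1 at -1.20 ± 0.13, and this share of called genes was near the 58.6% of all probe sets. BAT1, which inactivates brassinosteroids, and cwINV6, a wall fructan hydrolase, were higher in root by 3.72 ± 0.12 and 3.03 ± 0.16. Of 42 MADS-box genes 5 were higher in root and 7 in shoot, against 31% and 27.6% of all probe sets, with 3 higher in shoot without both apart mpk6 arrays and 12 with each array centred on its median.

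Of 16 mitochondrion-encoded genes 6 were higher in shoot and 0 in root, against 27.6% and 31% of all probe sets. Their median was -0.22, and 0 were at least 8-fold. Without both apart mpk6 arrays 4 were higher in shoot, and with each array centred on its median 8 were. cox1, a cytochrome oxidase subunit, differed by -0.49 ± 0.13 and its arrays overlapped. Of 5 reference genes used for quantitative PCR, AT4G34270 was called, at 0.33, while 58.6% of all probe sets were called. The other 4 were not, among them PEX4 at 0.04 and GAPC2 at -0.02 (95% interval -0.31 to 0.27). Over all probe sets the 95% interval of the difference lay within -0.5 and 0.5 for 10483 (46.1%) and within -0.25 and 0.25 for 4170. The 5 genes with the highest level among the latter were AT5G20290, AT5G15200, AT3G09200, AT4G16720 and AT1G52300, with differences from -0.04 to 0.10. Of 17 measured genes of the low-oxygen response list, 8 were higher in root and 6 in shoot, against 31% and 27.6% of all probe sets. Their median difference was 0.39. AT4G39675 and AT5G66985 were far from the rest, at 4.82 and 4.28, and the lactate dehydrogenase gene AT4G17260 differed by 0.57, whereas PDC2, a pyruvate decarboxylase, was not called at 0.50 (95% interval -0.30 to 1.30).

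Root genes lay beside other root genes in the genome more often than their share of genes. Among 5845 pairs of neighbouring protein-coding genes that were both measured, 12 pairs held 2 genes at least 8-fold higher in root, and 24 of 239 neighbours of such genes were of the same kind (10.0%), against 1.83% of all measured nuclear genes. For genes at least 8-fold higher in shoot it was 8 of 227 neighbours (3.52%), against 1.91%. GSTU25 and GSTU26, AT1G52050 with AT1G52060 and AT1G52070 (4.89, 4.56 and 5.19), and AT5G23830 with AT5G23840 (4.37 and 5.25) were root examples. A further 4 pairs were 8-fold in opposite directions, among them SBPASE (-6.53) beside AT3G55790 (3.14) and CHLM (-3.46) beside AT4G25090 (3.95). Tandem copies and probe sets that share sequence were not separated in this count, and no test was made.

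The organ difference was also estimated in each genotype, with 2 root and 2 shoot arrays each. With the spread shared over the 6 groups, 9025 probe sets were called in WT (39.7%), 8854 in mpk6 (38.9%) and 8866 in MPK6ox (39%), and 7213 in all 3 in the same direction (31.7%). Summed over the pairs of genotypes, 9 opposite calls were found, with a probe set counted once for each pair. At least 32-fold differences were fewer in mpk6, 20 higher in root and 115 higher in shoot, than in WT (56 and 138) and MPK6ox (60 and 158), and the difference of each of the 15 leading shoot genes and of 9 of the 15 leading root genes was smallest in mpk6, the genotype with both apart arrays. Between mpk6 and WT 0 probe sets differed in their organ difference by limma (0%), with 777 at an unadjusted p under 0.05 and a smallest adjusted p of 0.11. Chance alone would give a share of 0.05 of all probe sets, which is more than these 777. The fit has no term for the replicate number, and a count this low does not show that the genotypes are alike. With root and shoot paired by replicate number 1 probe set was called. The median SE of that difference was 0.23, which limits what 2 arrays per group can show.

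Between MPK6ox and WT 5 probe sets differed (0.022%, 1 with a larger and 4 with a smaller root minus shoot value in MPK6ox), with 715 at an unadjusted p under 0.05, and an F test over both lines gave 6 (0.0264%). These 715 are also fewer than the share of 0.05 that chance alone would give, and likewise do not show that the genotypes are alike. The called probe sets with 1 gene were 3. AT4G33720 differed by 1.15 between root and shoot in WT and by 5.16 in MPK6ox, a change of 4.01 ± 0.21 (adjusted p = 0.000315). CYP71B22, a cytochrome P450, differed by -1.27 in WT and -4.49 in MPK6ox, a change of -3.21 ± 0.19 (adjusted p = 0.00036), and SBT3.3, a subtilase linked to immune priming, by -0.35 and -2.89 (adjusted p = 0.00278). In mpk6 the 3 values were 1.66, -1.75 and -0.36. The labels name no second overexpressing line, so a property of the line and an effect of MPK6 cannot be told apart. The count of 5 fell to 3 without WT root replicate 1, WT shoot replicate 1, MPK6ox root replicate 1, MPK6ox shoot replicate 2 or any single mpk6 array.

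The organ differences seen in air were largely present in low oxygen, on arrays that the comparison in air did not use. The length of that treatment is uncertain, since the protocol gives 2 h and the source names 9 h. In hypoxia 12062 probe sets were called (53%). Of the calls in normoxia 10486 were made in the same direction in hypoxia (78.7% of the normoxia calls and 86.9% of the hypoxia calls), 81 were opposite, and of the 1077 probe sets at least 8-fold in normoxia 1076 were called in the same direction. A test of the difference over all 25 arrays called 1714 probe sets (7.54%), 980 with a larger and 734 with a smaller root minus shoot value in normoxia.

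Gene groups differed in how far their organ difference held. The 6 photosystem genes had a median of -5.35 in normoxia and -3.75 in hypoxia, and the 5 carbon fixation genes -6.32 and -4.45. The treatment difference was called for all 6 and all 5, against 7.54% of all probe sets and 864 of the 13355 measured genes. The shoot arrays hardly moved: the photosystem mean was 13.6 to 13.8 in both treatments, whereas on the root arrays it was 7.68 to 9.30 in normoxia and 9.25 to 11.0 in hypoxia. The carbon fixation mean likewise was 5.80 to 7.37 on the normoxia root arrays and 7.36 to 9.14 on the hypoxia root arrays. The 69 plastid-encoded genes had medians of -2.87 and -2.67, with the treatment difference called for 1. Whether shoot tissue took part in the higher root values was not tested. The 4 root hair genes had a median of 4.12 in normoxia and 1.99 in hypoxia, with all 4 called, and here too the root arrays differed, at 8.65 to 9.33 in normoxia and 6.67 to 7.53 in hypoxia. The 5 root meristem and stele genes had medians of 2.06 and 2.23, with 1 called.

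Single genes changed more. AT1G34510, a peroxidase gene, had a root mean of 10.8 in normoxia and 7.68 in hypoxia while its shoot mean was 5.10 and 4.86, so its organ difference was 2.88 ± 0.60 larger in normoxia (adjusted p = 0.0062). AT3G01260, AT2G23270 and AT4G25250 were of the same kind, with organ differences of 4.52, 4.34 and 3.61 in normoxia and 1.87, 1.78 and 1.02 in hypoxia. IAA29 had a shoot mean of 11.2 in normoxia and 8.84 in hypoxia, with root means of 6.27 and 7.01, and its organ difference went from -4.91 to -1.82 (change -3.08 ± 0.45, adjusted p = 0.000305). AT5G62280 went from -3.84 to -0.45 and the growth-related gene EXO from -2.18 to 0.77, which turned its direction. AT4G30380 and AT2G34400 hardly differed between the organs in normoxia (-0.04 and -0.21) and were higher in root in hypoxia (3.30 and 2.76), and AT1G72920 was at 0.03 in normoxia and higher in shoot in hypoxia (-2.73).

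**Figure D5:**
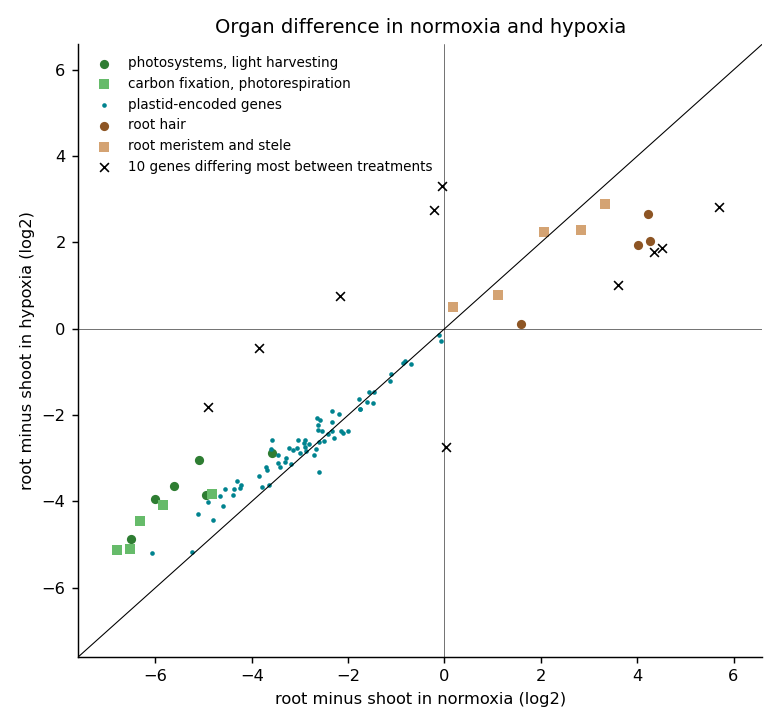
Root minus shoot difference (log2) in normoxia (horizontal, 12 arrays) and hypoxia (vertical, 13 arrays) for the genes of 5 lists and for the 10 genes that differed most between the treatments (crosses), with a line where both are equal. Photosynthesis and root hair genes lie nearer to 0 in hypoxia than in normoxia, and plastid-encoded and root meristem genes lie close to the line.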

How the data were processed

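The series held 25 ATH1 arrays, of which the 12 normoxia arrays entered the main fit and the 13 hypoxia arrays a separate one. RNA was labelled with a 2-cycle kit, per the labels' protocols. The deposited values are log2 expression values made by the authors by RMA (version not given), per the submitters' processing notes. They were used as deposited, without scaling or filter. How far signals stood above background is unknown, which can shrink folds of dim genes. Arrays have no depth, and their number limits precision. Of 22810 probe sets 64 controls were left out. Of the rest 13513 carried 1 gene, 503 several, and the genes of 8730 were not used here. By gene ID 13436 were matched to TAIR10.1, which gave 13355 genes, and 77 kept their symbol.

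An additive model was fitted in limma 3.58.1 (R 4.3.3) on the 12 arrays, with genotype and organ as terms (8 residual and 3.23 prior degrees of freedom). Group-mean models served for single genotypes and interactions, with Benjamini-Hochberg adjustment over all 22746 probe sets. The fit was also run on simulated data with few changed probe sets and independent noise. The real data have many calls and deviations shared by replicate number, so that run cannot vouch for the fit here. Errors beside an organ difference are standard errors over 6 root and 6 shoot arrays, beside a genotype difference over 2 arrays per group, and beside a treatment difference over all 25 arrays. A gene was read from its brightest probe set. The members and lists were chosen with earlier results of these data known. Genes named are the 15 largest each way among called probe sets with 1 gene and no overlap of arrays, up to 5 each way for the differences between genotypes and treatments, the 5 highest with an interval within 0.25, members of lists and families, and others chosen after their values were seen. Probe sets without a gene in the annotation table were not assigned to lists, and this left 0 usable members of the lists of light receptors, wax and cutin, mineral transport, aquaporins, plastid isoforms, triterpenes and seed storage. This says nothing of the array or of those genes. An aquaporin outside the list, AQI, was higher in root by 0.45 ± 0.07. The 2 measured cytokinin genes were not called, and GI, the measured clock gene, was higher in root by 1.10 ± 0.18. Promoter motifs were not analysed here.

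The titles number biological replicates. Deviations of root and shoot with the same number correlated at 0.383 in WT, 0.453 in mpk6 and 0.288 in MPK6ox, above the threshold of 0.1 used here for pairing. Arrays of the same organ and number in other genotypes correlated more, at 0.524 to 0.653. The number thus goes with a deviation shared over genotypes, and these values do not show that root and shoot were paired within a genotype. The main fit has no replicate block. Blocked fits are alternatives, with the number within genotype or over genotypes. Alternatives were a replicate block, other scalings, a filter on dim probe sets, other variance settings, a 2-fold threshold and each array left out. Figures were made with Python 3.11.15 and matplotlib 3.10.9.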

Additional observations from a re-analysis of the deposited data

Results flagged for a closer look

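Among 228 named genes, each with 6 root and 6 shoot arrays, a single array lay apart from the other 5 in 21 of 456 groups, where chance alone would give about 22.8. In 8 genes it was mpk6 shoot replicate 2 reading high: AT1G30870 at 7.238, AT1G34510 at 6.13, AT2G43610 at 6.691, AT5G23840 at 7.605, AT5G54370 at 5.799, AT1G18980 at 7.81, AT1G52070 at 6.892 and AT4G39675 at 7.196. The same array was low for BGLU33, at 7.526. mpk6 root replicate 1 was high for SBPASE at 6.385, psaJ at 7.569, LIL3:1 at 7.033 and NdhL at 5.453. On mpk6 shoot replicate 1, ATPC1 at 13.66, AT2G28390 at 9.263 and EXPA15 at 8.124 were high and IAA18 at 9.18 was low. NOL was low on mpk6 root replicate 2, at 6.075. WT root replicate 2 was high for PDF1.4 at 7.034 and UGT78D1 at 6.047, and rpoC2 was low on WT shoot replicate 1, at 8.024.

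The organ difference itself differed between groups by a test of that difference for 5 probe sets between MPK6ox and WT and for 6 in an F test over genotypes. The genes were AT4G33720 at 4.01, CYP71B22 at -3.214 and SBT3.3 at -2.541, given as the root minus shoot difference in MPK6ox less that in WT.

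Between normoxia and hypoxia it differed for 1714 probe sets. The 5 genes with the largest positive values, normoxia less hypoxia, were AT1G34510 at 2.881, AT1G72920 at 2.743, AT3G01260 at 2.628, AT2G23270 at 2.59 and AT4G25250 at 2.577. The 5 with the largest negative values were AT5G62280 at -3.378, AT4G30380 at -3.366, IAA29 at -3.085, AT2G34400 at -2.985 and EXO at -2.979.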

How the results depend on the processing

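Over 228 genes and the alternatives run, 5237 combinations gave 5154 with the same direction and side of the threshold, 59 that lost the call, 24 that gained it and 0 that reversed. A test against a 2-fold difference called 3858 probe sets, 1940 higher in root and 1918 in shoot, by its own stricter threshold. With the replicate block, which pairs root and shoot, 14167 were called (14512 with the number over genotypes), the counts between MPK6ox and WT and in the F test were 4 and 7, the count between mpk6 and WT was 1 instead of 0, and no other count of calls moved by over 1.5 times. That count was also 1 with all 25 arrays. The narrower interval of 0.25 held 4170 probe sets. With both apart mpk6 arrays removed, chosen after seeing the data, the count between MPK6ox and WT was 3. Leaving out each array in turn gave 12625 to 13074 calls, 3 to 6 between MPK6ox and WT and 3 to 7 in the F test, the latter 3 without mpk6 shoot replicate 1 or MPK6ox shoot replicate 2. Centring each array on its median moved the share of calls higher in root from 52.9% to 45.1%. Of the 1077 probe sets at least 8-fold, 218 had their lower organ below 5.294, the 25th percentile of all means, where folds depend on background. Promoter motifs were not run, since no promoter sequences were used.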
